A study of Mus musculus with 6 samples.

Results

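The guanylate binding protein (Gbp) genes Gbp5, Gbp7, Gbp3, Gbp2b and Gbp2 lie side by side on mouse chromosome 3, and binding of the co-repressor CTBP2 was measured across them. The cluster was taken as every site on chromosome 3 whose centre fell in a 220 kb window, from 76.2 kb before to 143.8 kb past the Gbp7 start (positions in GRCm39), which gave 23 of the 62236 sites in the table. The first lay at chr3:142175550-142176550 and the last at chr3:142344229-142345229. All 23 were 1001 bp wide, none shared bases with its neighbour, and all are described here. Chromatin immunoprecipitation and sequencing was done in bone marrow-derived macrophages, which are grown from marrow cells in medium that makes them mature into macrophages. One group of 3 libraries came from cells given lipopolysaccharide (LPS, 100 ng/ml for 3 h), a cell wall component of Gram-negative bacteria, and the other group of 3 from cells given vehicle (PBS). All 6 came from male wildtype C57BL6/N mice aged 6 to 12 weeks, with marrow cells cultured for 6 days. The labels number the replicates without saying whether they were separate animals or cultures, so the p-values rest on the spread among 6 libraries that may be technical repeats. An input library was not analysed here.

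Guanylate binding proteins are large GTPases that cells make in response to interferons. They gather on vacuoles that hold parasites or bacteria and on bacteria in the cytosol, and they help the inflammatory caspases to sense bacterial LPS. In macrophages LPS acts through its receptor TLR4, which turns on NF-kB and the gene of interferon-beta, and the secreted interferon then switches on genes through STAT and IRF factors that bind the GAS and ISRE elements of promoters. CTBP2 does not read DNA letters itself. It is brought to chromatin by DNA-binding partners and carries histone-modifying enzymes that lower transcription. Setting LPS against vehicle shows how its binding over the Gbp genes differs in stimulated macrophages, and the assay reads occupancy of DNA, not the level of the Gbp transcripts.

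The gene columns of the table name Pdlim5 for all 23 sites, because they follow another build (GRCm38) than the site positions. The distance between both builds was therefore measured from other genes. These were 182 genes between 130 and 150 Mb of chromosome 3 (GRCm38), outside the cluster and the gene lists counted below. Of them, 57 (31.3%) had a site within 500 bp of the start after a single shift of 294.15 kb. At most 19 did at any other shift up to 1 Mb, and 4 with no shift. With that shift Gbp5, Gbp7, Gbp3 and Gbp2 each had a site centred 0.087, 0.133, 0.450 and 0.566 kb from the start, and these 4 are called start sites below. The nearest site to the start of Gbp2b lay 3.02 kb inside the gene. Of the 23 sites, 10 lay inside one of the 5 genes and 13 between or outside them. The chromatin was sheared to 500 to 1000 bp, so positions closer than that are not resolved.

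The promoters of the 4 genes with a start site are shown because CTBP2 signal lay on each of them and differed in how much it moved. Each runs from 250 bases before to 50 after the start on the plus strand (RefSeq, GRCm38.p6, chr3:142496684-142496983 for Gbp5, chr3:142530086-142530385 for Gbp7, chr3:142559794-142560093 for Gbp3 and chr3:142620413-142620712 for Gbp2, in a build that must not be read against the site positions). Capitals mark matches on either strand to the ISRE core (GAAA, any 2 bases and GAAA again, or the reverse complement, such as TTTCAGTTTC in Gbp7), and to the NF-kB consensus, which in Gbp5 reads GGAAATTCCC and in Gbp2 GGAACTTCCC.
Gbp5: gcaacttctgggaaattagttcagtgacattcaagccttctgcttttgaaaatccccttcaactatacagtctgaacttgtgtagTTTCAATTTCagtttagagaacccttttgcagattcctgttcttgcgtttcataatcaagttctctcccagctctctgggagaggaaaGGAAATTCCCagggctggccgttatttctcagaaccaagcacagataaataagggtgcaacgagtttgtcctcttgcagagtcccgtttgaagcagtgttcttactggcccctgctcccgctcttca
Gbp7: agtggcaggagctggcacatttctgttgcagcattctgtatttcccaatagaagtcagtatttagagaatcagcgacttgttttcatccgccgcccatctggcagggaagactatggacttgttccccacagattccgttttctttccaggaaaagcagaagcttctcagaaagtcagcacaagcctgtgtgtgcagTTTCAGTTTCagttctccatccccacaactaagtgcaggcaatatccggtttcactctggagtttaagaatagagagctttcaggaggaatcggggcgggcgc
Gbp3: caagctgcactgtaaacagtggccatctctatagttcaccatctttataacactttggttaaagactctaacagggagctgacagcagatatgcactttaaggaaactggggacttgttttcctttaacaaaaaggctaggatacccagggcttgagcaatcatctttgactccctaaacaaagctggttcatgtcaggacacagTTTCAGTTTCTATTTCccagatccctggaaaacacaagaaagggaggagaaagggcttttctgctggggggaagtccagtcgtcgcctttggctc
Gbp2: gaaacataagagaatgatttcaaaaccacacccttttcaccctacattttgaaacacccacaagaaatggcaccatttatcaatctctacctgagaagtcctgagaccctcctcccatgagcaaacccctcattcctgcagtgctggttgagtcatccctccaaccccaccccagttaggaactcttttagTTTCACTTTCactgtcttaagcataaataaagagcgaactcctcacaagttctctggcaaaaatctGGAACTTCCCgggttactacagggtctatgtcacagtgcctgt
Every one of these promoters, and that of Gbp2b (TTTCACTTTC at bases 114 to 123 of its window), held an ISRE core, against 3.45% of 32544 promoter windows of the same length. Gbp3 held a pair that overlap each other. The NF-kB consensus was matched in Gbp5 and Gbp2, against 8.49% of all windows. The GAS element, TTCNNNGAA, which is not in capitals, was matched at 2 places in Gbp5 and 2 in Gbp7, against 8.33% of all windows with a match, and had no match in the windows of Gbp3, Gbp2b and Gbp2. A match is a run of letters and was not tested as a binding site.

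CTBP2 signal was higher after LPS over nearly the whole cluster. Of the 23 sites, 19 rose and 0 fell at a limma adjusted p under 0.05 with Benjamini-Hochberg adjustment over all sites, where 16.1% of all sites were called higher and 13.5% lower. At 20 of the 23 the lowest LPS library exceeded the highest vehicle library, as at 21.6% of all sites, and the reverse held at 0 of the 23 and 20.6% of all sites. Signal is given as the deposited value scaled to the median of its library, and folds are differences of log2(signal + 1), which understates change at low sites. The median log2 difference was 0.89 over the 23 sites and -0.02 over all 62236. The called sites rose by 0.62 to 2.32 on the log2 scale, and 10 of the 23 sites were over 1. Without each single library in turn, between 16 and 18 sites were called higher, and the share of all sites called in those fits was not counted.

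The call depended on how libraries were put on a common level. The deposited library medians were 37.1, 48.8 and 61.0 in LPS replicates 1, 2 and 3 and 35.5, 37.3 and 73.0 in vehicle replicates 1, 2 and 3, so vehicle replicate 3 stood highest. On the values as deposited 7 of the 23 sites were called higher and 0 lower, where 1.89% of all sites were called higher and 0.0482% lower. By the authors' deposited table, 8 of the 23 had an FDR under 0.05, all with a positive fold, where 4.01% of all sites were called higher and 0.37% lower. These 8 were also called here, and held all 7 of those called on the deposited values. The log2 difference was above 0 at all 23 sites in each of the 13 settings with a fit, the deposited scale among them.

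**Figure D1:**
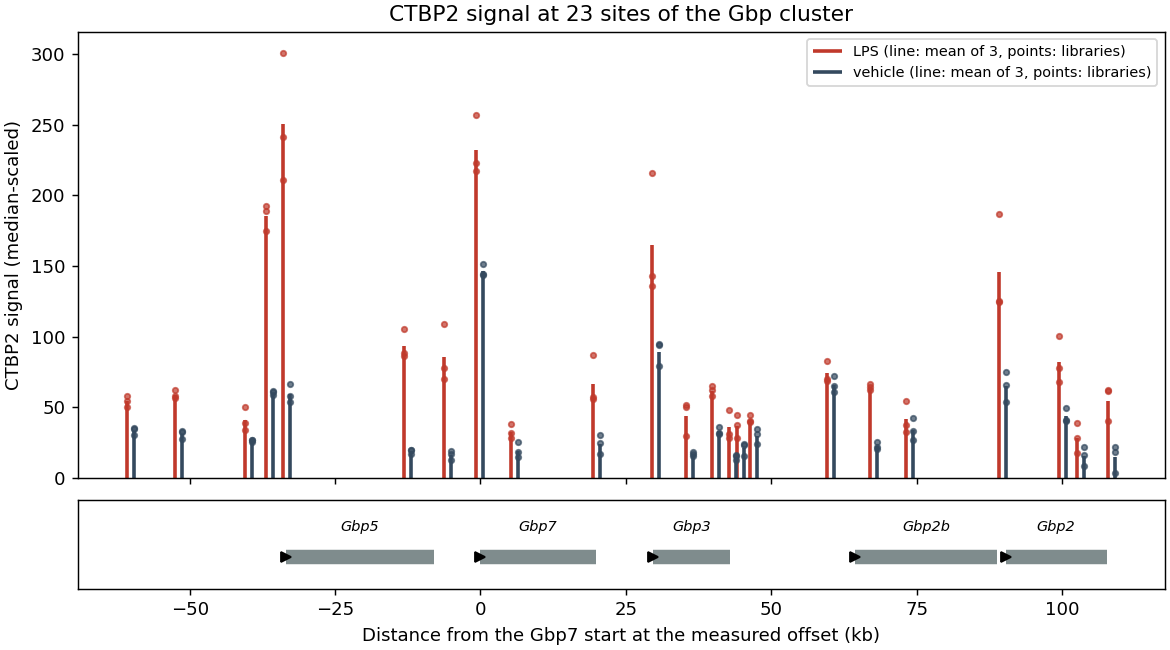
Median-scaled CTBP2 signal at the 23 sites (vertical axis, linear) against the distance from the Gbp7 start in kb, with LPS drawn to the left of vehicle at each site. Lines are means of 3 libraries and points single libraries, and grey bars below are the genes with an arrowhead at each start. LPS means reach 251 at the Gbp5 start and 232 at the Gbp7 start, against 59.4 and 146 in vehicle.

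Gbp5, whose protein is linked to inflammasome activation, had the site with the highest mean signal after LPS. In LPS replicate 1 the Gbp7 start was higher (223 against 211 at the Gbp5 start). The Gbp5 start site (chr3:142202371-142203371) had a signal of 211, 241 and 301 in the LPS libraries, against 53.8, 66.6 and 57.8 in the vehicle libraries. The lowest LPS library was above the highest vehicle library. The log2 difference was 2.05 (SE 0.15, limma adjusted p = 2.96e-12), and the LPS mean of 251 stood at the 99.5th percentile of all sites, against the 63.0th for the vehicle mean of 59.4. A second site 2.94 kb before this start (chr3:142199340-142200340) had 189, 175 and 192 in LPS and 58.4, 60.6 and 61.4 in vehicle. Its groups did not overlap either, and the log2 difference was 1.61 (SE 0.14, limma adjusted p = 1.77e-10). The Gbp5 promoter printed above is the one with the ISRE, NF-kB and GAS letters together. Whether these letters have a part in the rise was not tested.

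The steepest rises came between the Gbp5 and Gbp7 starts, at places with little signal in vehicle. Inside Gbp5, 12.5 kb before the Gbp7 start (chr3:142223143-142224143), the signal was 88.4, 86.2 and 106 in LPS and 19.5, 19.6 and 16.8 in vehicle, a log2 difference of 2.26 (SE 0.19, limma adjusted p = 4.87e-11). Between both genes, 5.68 kb before the Gbp7 start (chr3:142230008-142231008), it was 69.9, 77.7 and 109 in LPS and 12.6, 17.1 and 19.3 in vehicle, a log2 difference of 2.32 (SE 0.22, limma adjusted p = 4.80e-10). The groups stood far apart at both sites. Their vehicle means, 18.6 and 16.3, were at the 3.82nd and 1.83rd percentiles of all sites, and their LPS means, 93.4 and 85.6, at the 83.3rd and 80.0th. Whether peaks were called per library is not given. A site that entered the table only through its LPS signal would be low in vehicle by that choice. Low vehicle signal with a steep rise, here or elsewhere in the cluster, may thus be partly set by how sites were chosen. The 4 sites from 2.94 kb before the Gbp5 start to 5.68 kb before the Gbp7 start held 31.2% of the cluster's summed signal in LPS and 17.2% in vehicle. They also made up 42.9% of the summed difference. This group was not planned, and its sites have some of the largest log2 differences of the cluster, so its share is partly set by the choice.

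Gbp7, whose protein takes part in the defence against intracellular parasites, behaved otherwise at its own start. This site (chr3:142235553-142236553) had the highest vehicle signal of the cluster, 151, 143.3 and 144.4, at the 95.7th percentile of all sites, against 223, 218 and 257 in LPS. It rose by a log2 difference of 0.66 (SE 0.13, limma adjusted p = 0.000177), and the groups did not overlap. On the deposited values the difference was 0.72 and was not called (limma adjusted p = 0.663). A site 5.86 kb inside the gene (chr3:142241541-142242541) rose by 0.76 (SE 0.28, limma adjusted p = 0.0388), from low signal in both groups, 32.6 ± 4.85 in LPS and 19.2 ± 5.48 in vehicle (SD, n = 3 each). That call was lost without any one of LPS replicates 1, 2 and 3 and vehicle replicates 2 and 3, where the log2 difference was 0.59 to 0.85 (limma adjusted p = 0.0518 to 0.151). It was also lost on quantile normalised values (0.61) and on the deposited values (0.82).

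The rise was unequal among the 4 start sites when each library was set against itself. The ratio of the Gbp5 to the Gbp7 start site was 0.946, 1.11 and 1.17 in the LPS libraries and 0.356, 0.464 and 0.400 in the vehicle libraries. In LPS both starts carried about equal signal, and in each vehicle library the Gbp7 start carried more. This ratio within a library does not depend on how libraries were scaled, and it was 2.65-fold higher in LPS (log2 difference 1.40, exact two-sided permutation p = 0.1, adjusted p = 0.12 over 6 pairs). Gbp5 rose relative to Gbp3 by 1.21 and relative to Gbp2 by 0.91 on the log2 scale, with no overlap of the groups and the same p-values. The ratios of Gbp7 to Gbp2 and of Gbp3 to Gbp2 had log2 differences of -0.49 and -0.30, again with no overlap and the same p-values. With 3 libraries against 3, the test cannot give an exact p below 0.1, so none of the 6 pairs could pass 0.05. The ratio of Gbp7 to Gbp3 overlapped between groups, at 1.557, 1.604 and 1.193 in LPS and 1.610, 1.806 and 1.519 in vehicle (log2 difference -0.19, exact permutation p = 0.4). These pairs were chosen after the values were seen.

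**Figure D2:**
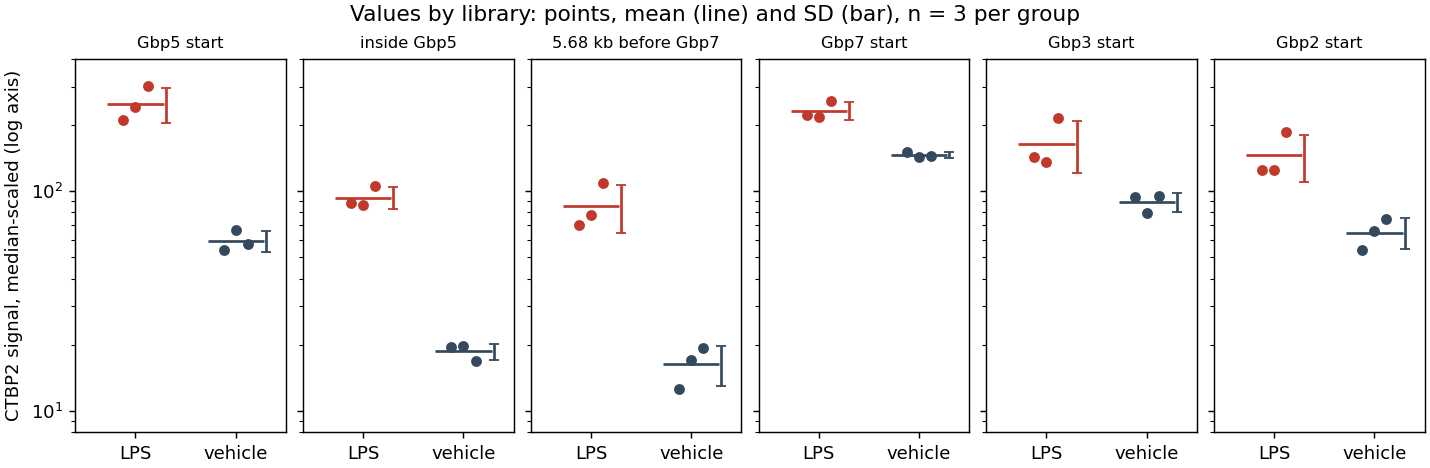
Median-scaled CTBP2 signal (log axis) in each library at the 4 start sites and at both sites between the Gbp5 and Gbp7 starts, LPS left of vehicle in each panel. Points are libraries, lines the mean and bars the SD of 3 libraries, and among these 6 sites the log2 difference is highest 5.68 kb before Gbp7 (2.32) and lowest at the Gbp7 start (0.66).

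At Gbp3 the start site (chr3:142265844-142266844) had 143.0, 136 and 216 in LPS, against 93.9, 79.3 and 95.1 in vehicle. LPS replicate 3 stood apart from the other LPS libraries here, and no value overlapped between groups. The log2 difference was 0.85 (SE 0.16, limma adjusted p = 0.000118), and on the deposited values it was 0.91 and was not called (limma adjusted p = 0.496). A site 9.72 kb before this start (chr3:142255670-142256670), in the gap behind Gbp7, rose more, with 55.7, 57.2 and 86.6 in LPS and 17.2, 24.7 and 30.1 in vehicle (log2 difference 1.44, SE 0.22, limma adjusted p = 6.05e-06). Of the 5 sites that follow the Gbp3 start over the next 17.2 kb, 4 rose. At the first, inside the gene and 6.17 kb past its start, the signal was 29.5, 50.3 and 51.4 in LPS and 17.2, 17.9 and 15.6 in vehicle (log2 difference 1.28, limma adjusted p = 0.000326). The next 3 had 61.7 ± 3.54, 35.6 ± 10.6 and 36.5 ± 8.05 in LPS and 32.9 ± 2.82, 14.8 ± 1.95 and 20.9 ± 4.58 in vehicle (SD, n = 3 each), and rose by 0.89, 1.18 and 0.78. The last of them had 41.2 ± 2.64 in LPS and 29.9 ± 5.47 in vehicle (SD, n = 3 each) and did not pass (log2 difference 0.46, limma adjusted p = 0.0951). The fourth of them (chr3:142280438-142281438, log2 difference 0.78) lost its call without LPS replicate 1 (0.75), LPS replicate 3 (0.63) or vehicle replicate 3 (0.59). The same happened on quantile normalised values (0.64) and on the deposited values (0.84).

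Gbp2b, the gene first described as Gbp1, was the gene of the 5 with no site within 1 kb of its start. The site 4.32 kb before that start (chr3:142295877-142296877) had 73.9 ± 7.90 in LPS and 66.0 ± 5.85 in vehicle (SD, n = 3 each), and its groups overlapped. Its log2 difference of 0.16 had a 95% interval of -0.17 to 0.49 (limma adjusted p = 0.497), which ended below the smallest called difference of the cluster, 0.62. The site 3.02 kb inside the gene (chr3:142303220-142304220) had 62.2, 66.6 and 64.1 in LPS and 25.2, 20.5 and 21.7 in vehicle. It rose by 1.48 (SE 0.20, limma adjusted p = 5.23e-07), and this call held in every one of the settings fitted. Another site 9.21 kb inside Gbp2b had 41.5 ± 11.2 in LPS and 34.1 ± 8.14 in vehicle (SD, n = 3 each) and overlapping groups (log2 difference 0.27, 95% interval -0.18 to 0.72).

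Gbp2, whose protein coats parasite vacuoles, had a start site (chr3:142325447-142326447) with 124, 125 and 187 in LPS and 53.8, 65.7 and 74.6 in vehicle. LPS replicate 3 was again the highest. The log2 difference was 1.14 (SE 0.17, limma adjusted p = 3.28e-06), and on the deposited values it was 1.20 and was not called (limma adjusted p = 0.219). A site 9.83 kb inside the gene had 81.8 ± 16.6 in LPS and 43.5 ± 5.04 in vehicle (SD, n = 3 each) and rose by 0.88. One 12.9 kb inside had 17.5, 28.2 and 38.8 in LPS and 21.8, 16.2 and 8.43 in vehicle, with overlapping groups (log2 difference 0.85, limma adjusted p = 0.0843). The last site of the cluster, 18.2 kb past the Gbp2 start and behind the gene (chr3:142344229-142345229), had 40.4, 62.3 and 61.4 in LPS and 21.8, 17.9 and 3.61 in vehicle. It rose by 2.12, with the widest error of the cluster (SE 0.58, limma adjusted p = 0.0273), and without vehicle replicate 3 the log2 difference was 1.40. The value in that library would be 3 reads if its smallest step is 1 read.

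The 3 sites farther before Gbp5 completed the cluster. They lay 26.7, 18.4 and 6.51 kb before its start, had LPS means of 54.2, 58.9 and 41.0 and vehicle means of 33.1, 31.0 and 26.0, and rose by 0.69, 0.91 and 0.62. The call of the nearest of them was lost without LPS replicate 2 (log2 difference 0.46), LPS replicate 3 (0.65), vehicle replicate 1 (0.59) or vehicle replicate 2 (0.63). Quantile normalised values (0.55) and the deposited values (0.68) lost it too. LPS replicate 3 had the highest signal of all 6 libraries at 18 of the 23 sites. Over the 23 sites, the log2 vehicle signal and the log2 difference had a Pearson correlation of -0.33 and a Spearman correlation of -0.40, as a description of sites that share their libraries, in which the vehicle signal enters both measures.

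**Figure D3:**
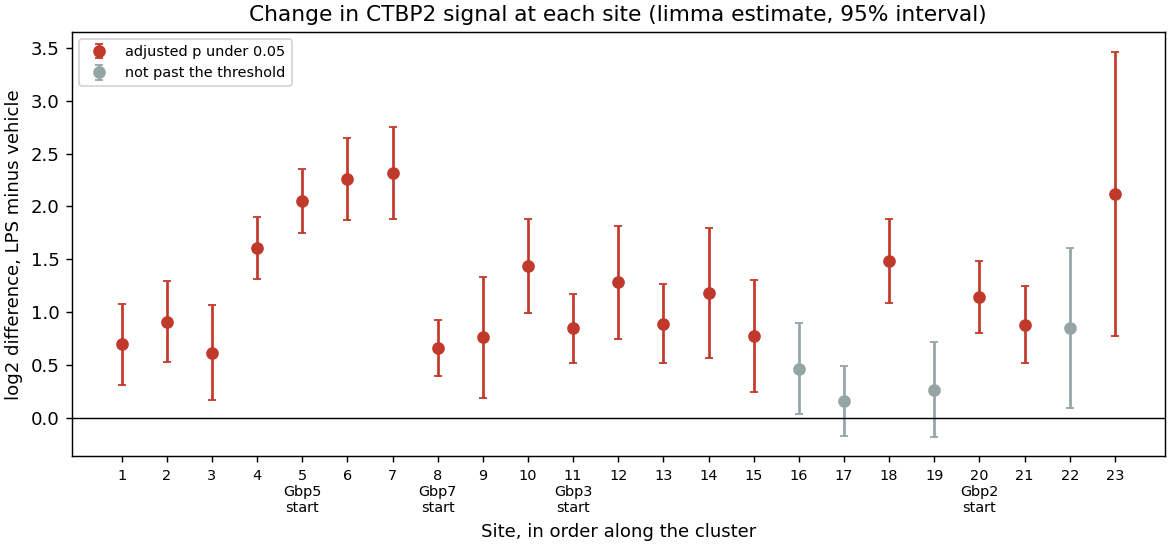
Log2 difference in CTBP2 signal, LPS minus vehicle (vertical axis), at the 23 sites in order along the chromosome, with the start sites of Gbp5, Gbp7, Gbp3 and Gbp2 marked. Points are limma estimates from 3 libraries per group and bars 95% intervals. The 19 red sites passed the test, sites 4 to 7 reach 1.61 to 2.32, and the Gbp7 start is at 0.66.

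The summed signal of the cluster was 1758, 1867 and 2298 in the LPS libraries, against 895, 901 and 902 in the vehicle libraries. On this median-scaled level the vehicle sums were nearly equal and every LPS sum was higher. The rise was 2.18-fold (log2 difference 1.12, exact two-sided permutation p = 0.1, the smallest that this design can give). On the deposited values the groups overlapped. The cluster took up 0.0441%, 0.0481% and 0.0596% of the signal in all sites in LPS and 0.0235%, 0.0237% and 0.0231% in vehicle. The 220 kb windows directly on either side of the cluster held 14 and 11 sites, of which 5 rose and 2 fell, shares of the 25 near those over all sites (16.1% higher and 13.5% lower). Their summed signal averaged 1285 in LPS and 1223 in vehicle. Set against these flanks within each library, the log2 ratio of the cluster was 0.58, 0.59 and 0.68 in LPS and -0.44, -0.37 and -0.52 in vehicle. The groups did not overlap, and the ratio was 2.08-fold higher in LPS (exact permutation p = 0.1), whatever the scaling of the libraries. The edges are not sharp. The last site below the window, 14.3 kb outside it, rose by 1.08 (limma adjusted p = 0.000864), and the first one above it, 22.5 kb outside, had a log2 difference of -0.10 (limma adjusted p = 0.761).

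Mice carry another group of Gbp genes on chromosome 5, among them Gbp4, Gbp6, Gbp8, Gbp9, Gbp10 and Gbp11. The 13 sites from 10 kb before to 10 kb after these genes, placed by a shift measured there in the same way, included 9 that rose and 0 that fell (limma adjusted p under 0.05), with a median log2 difference of 0.75. That shift put a site within 500 bp of 19 of 50 other genes there, against 8 at the next best shift and 1 with none. The site with the smallest adjusted p (chr5:105441530-105442530) had 147.4, 143.4 and 157 in LPS and 33.2, 25.6 and 26.5 in vehicle, a log2 difference of 2.36 (SE 0.17, limma adjusted p = 1.41e-12). A site of about the same LPS signal (chr5:105257711-105258711) had 175.7, 143.4 and 133.6 in LPS and 149.9, 165.5 and 138.4 in vehicle, with overlapping groups (log2 difference -0.01, limma adjusted p = 0.969). The sum of the chromosome 3 cluster over the chromosome 5 sum had a log2 ratio of 1.07, 1.23 and 1.64 in LPS and 0.85, 0.74 and 1.07 in vehicle. The lowest LPS value and the highest vehicle value were nearly the same, and the difference of 0.43 (exact permutation p = 0.1) was 0.27 without LPS replicate 3.

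**Figure D4:**
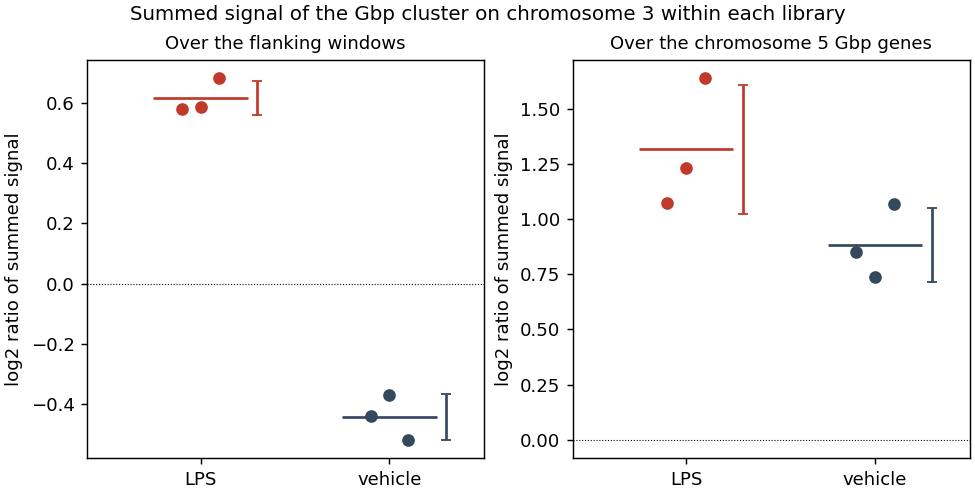
Log2 ratio of the summed CTBP2 signal of the chromosome 3 cluster to that of the flanking windows (left) and of the chromosome 5 Gbp genes (right) within each library, LPS left of vehicle. Points are libraries, lines the mean and bars the SD of 3 libraries. The groups are 1.06 apart over the flanks, and 0.43 apart over the chromosome 5 genes, where they almost touch.

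Other genes of the interferon and inflammasome pathways were counted from lists made with earlier results of these data known. A site belonged to a gene where it lay within 10 kb of the start. A gene counted as placed where the promoter table gave its start and its region gave a shift. As a background, 21.4% of 15015 placed genes outside the lists with such a site had one that rose and 17.6% one that fell, and of those with 4 sites 41.8% and 33.6%. Of the 94 sites of the genes that could be placed, 40 rose and 2 fell, against 16.1% and 13.5% of all sites, with a median log2 difference of 0.45. These 94 include 3 sites of Gbp2b. By the names in the table the lists had 296 sites, of which 72 (24.3%) rose and 34 fell, the fallen share being near that of all sites. These names follow another build than the site positions, so such sites need not lie near the genes named. Among interferon-inducible GTPases, 5 of 12 genes had a start in the promoter table and a shift, and these 5, with 3 to 5 sites each, had a site that rose. The chromosome 5 genes, placed above as 1 block from their gene spans, are not among them. These were Gbp2b, whose sites belong to the cluster, and the immunity-related GTPases Igtp (log2 difference 1.22), Ifi47 (1.33), Irgm2 (0.91) and Irgm1 (1.01), which act on the same pathogen vacuoles. Among regulators, 5 of 10 placed genes, with 1 to 6 sites each, had a site that rose. They were led by the signalling inhibitor Socs1 (1.57) and the transcription factor Irf1 (1.28), with Ifnb1, the gene of interferon-beta, at 0.98 and Irf7 at 0.61. The interferon receptor genes Ifngr1 (6 sites) and Ifnar1 (4 sites) had a site that fell, by log2 differences of -0.64 and -0.50. Of background genes with 6 and 4 sites, 44.3% and 33.6% had one that fell. Of the 32 regulator sites 8 rose and 2 fell, where 16.1% and 13.5% of all sites did.

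Of the inflammasome genes, all 4 that were placed, with 2 to 6 sites each, had a site that rose. These were the sensors Nlrp3 (log2 difference 0.81) and Aim2 (0.86) and the caspase genes Casp4 (0.48) and Casp1 (0.83). The Casp1 site that rose was counted for Casp4 as well, whose value here is from another site. The Casp4 call was lost without LPS replicate 3 (0.42) or vehicle replicate 1 (0.41), and that of Casp1 without LPS replicate 3 (0.56) or vehicle replicates 1 (0.82) or 2 (0.78), and on quantile normalised values (0.72). Of 12 other interferon-stimulated genes placed, 11 had a site that rose, with Tap1, Psmb8 and Psmb9 sharing the same one, led by the chemokine gene Cxcl10 (4.36), Isg15 (1.50), which encodes a ubiquitin-like modifier, and the antiviral genes Rsad2 (1.58) and Ifit1 (1.21). All log2 differences in these lists are from limma on median-scaled values with an adjusted p from 6.74e-12 to 0.0335. Of the 16 genes with the smallest adjusted p (4 per list), Gbp2b, Socs1, Cxcl10, Isg15 and Rsad2 were also called on the deposited values.

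Within the cluster, the site with the highest mean over all libraries was the Gbp7 start. The sites outside the cluster most like it, by Euclidean distance over the 6 log2 values (1 per gene as the table names it), lay nearest to Sdc4, Bcl6, Gm32286 (named Tpx2 in the table), Aff1 (named Klhl8) and Abracl (named Heca) at the measured shift, at distances of 0.13 to 0.19. That of Gm32286 lay 31.6 kb from its start. Their log2 differences were 0.56 to 0.77, beside 0.66 at the Gbp7 start. This closeness follows from the choice, which used the same 6 values. Sites were also counted at marker genes of cell types. They lay within 10 kb of the start of all 5 placed genes of 8 macrophage genes (Itgam, Cd68, Lyz2, Mertk and Fcgr1). The same held for 1 of 4 placed neutrophil genes and both placed lymphocyte genes (Cd3e and Cd79a), and neither of 2 fibroblast genes could be placed. A site fell at Itgam (log2 difference -0.70), Cd68 (-0.34) and Cd79a (-0.50), one rose at Cd3e (1.07), and no site of Lyz2, Mertk, Fcgr1 or the neutrophil gene S100a8 passed the test. Signal at DNA does not give the expression of these genes, so these sites are no check of the labelled cell type. The part of other cells in the Gbp values was not tested.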

How the data were processed

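CTBP2 chromatin immunoprecipitation was sequenced in 3 LPS and 3 vehicle libraries. Cells were fixed with 2 mM DSG and then 1% formaldehyde, per the labels' protocols. The single deposited table gives a normalised signal per site and library, log2 concentrations and a log2 fold by the authors, and a p-value and FDR. Per the submitters' processing notes BWA 0.7.17, MACS3 3.0.0a5 and DiffBind 3.16 were among the tools, and mm39, GRCm39 and mm10 among the builds. What set the normalisation, and whether peaks were called per library: not given in the sources used here. Other deposited distances were not used. In each library the low values (up to 300 steps) are whole multiples of 1 step within 0.1 step. If a step is 1 read, libraries held 3243265 to 4553180 reads in sites, and the cluster 1611, 2188 and 2546 in LPS replicates 1, 2 and 3 and 782, 1056 and 750 in vehicle replicates 1, 2 and 3. Depth is otherwise unknown, and no count test was run.

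Each column was divided by its median and multiplied by the geometric mean of the 6 medians (46.9). R 4.3.3 was used to test log2(value + 1) at all 62236 sites in all 6 libraries with limma 3.58.1 (robust, with a trend, no covariates). Sums and ratios were tested by exact permutation over libraries (scipy 1.17.1). Shifts between builds were scored in 100 bp steps, and elsewhere accepted with at least 8 genes hit and 1.5 times the next best. Every site of the cluster is described, and from the other lists up to 4 genes with the smallest adjusted p. Irgm1, Ifngr1 and Ifnar1 were named after their values were seen. The design counted list genes by the table's names where no annotation of the sites' build was at hand, and placing them at the measured shift was added after seeing the data, as were the pairs of start sites and the background share of genes. The members and lists were chosen with earlier results of these data known. Alternatives were the deposited and quantile scales, a pseudocount of 8, a minimum mean of 20, limma without its options, a replicate block, an adjusted p of 0.01, the authors' FDR and each library left out.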

Additional observations from a re-analysis of the deposited data

How the results depend on the processing

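The count of 19 higher sites in the cluster was 7 on the values as deposited and 8 by the authors' deposited FDR. It was 16 on quantile normalised values, 15 at an adjusted p under 0.01, and 19 with a pseudocount of 8, with the minimum mean, without limma's options and with the replicate block. It was 16 to 18 without each library. Shares of all sites called are given above for the main, deposited and authors' settings only. For the other settings they were not counted, so those counts cannot be set against a background. No site was called lower in these settings (limma called 0, and 21 sites had an unadjusted p under 0.05, all higher). Over the whole series, 24772 of 62236 sites had an unadjusted p under 0.05 in either direction. Across 276 refits of single cluster sites, 247 kept their side of the threshold, 27 lost the call and 2 gained it, with 0 reversed, and 7 sites were called at an adjusted p under 0.05 in all 12 of these refits. The 72 higher and 34 lower sites named for the other interferon genes were 13 and 0 on deposited values, 84 and 38 with the replicate block and 57 to 67 and 24 to 33 without each library. With genes placed at the measured shift they were 40 and 2 within 10 kb, and 105 and 10 within 50 kb. Fewer sites are tested within 10 kb. The names follow another build than the site positions, so a site counted by name need not lie near that gene. The causes of the other differences were not tested.

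The log2 difference of the cluster sum (1.12) was 1.01 to 1.20 without each library, that over the flanks (1.06) 1.02 to 1.09, and that over the chromosome 5 genes (0.43) 0.27 to 0.55. With the deposited values the first was 1.19, and its exact permutation p was 0.2. There the cluster sum of vehicle replicate 3 was slightly above that of LPS replicate 1, so the groups overlapped. Same-numbered libraries had correlations of their deviations of 0.11, 0.04 and 0.21. Among libraries of unlike number, LPS replicate 1 and vehicle replicate 2 had 0.15, and the rest had -0.21 to -0.01. The labels state no pairing, so the main tests did not pair the libraries. Whether the numbers pair them was not tested. With the block the log2 differences of these sums were as large (exact p = 0.25, the smallest that 3 pairs give). The comparison with chromosome 5 as planned, with an annotation of the sites' build, was not run, nor were edgeR and DESeq2, which need counts. Depth limits the low sites most, with 3 to 333 steps per site and library in the cluster.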
